A study of Homo sapiens with 18 samples.

Results

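SFPQ, NONO and PSPC1 are the human members of the DBHS family of RNA-binding proteins, and SFPQ is the protein also called PSF. The gene-level array carried 1 transcript cluster (the probes of 1 gene, summarised as a single value) for each of them. These 3 clusters, found by gene symbol in the platform annotation among 33297 on the array, are described on all 18 arrays. Each cluster carried that symbol alone, isoforms of a gene were not separated, and the probes may in part read pseudogenes.

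DBHS proteins share paired RNA recognition motifs and a coiled coil, and they work as dimers of the same or different members. SFPQ and NONO, with PSPC1 as a further component, coat the long noncoding RNA that builds paraspeckles, a type of nuclear body. SFPQ acts in splicing and in transcription, where it binds the SIN3A and histone deacetylase corepressors, and NONO is a coregulator of transcription that also takes part in DNA repair. PSPC1 is best known as a paraspeckle marker.

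The study asked how androgen-dependent expression changes when PSF or CTBP1-AS, an RNA antisense to the corepressor gene CTBP1, is knocked down in LNCaP and VCaP, established prostate cancer lines that respond to androgen. Cells received siPSF, siCTBP1-AS or siControl 48 h before hormone and stood for 3 days in charcoal-treated serum, at 2.5% for LNCaP and 5% for VCaP. They then received R1881, a synthetic androgen, or ethanol vehicle. LNCaP set 3 held siPSF and siControl with 10 nM R1881 and vehicle. The VCaP set held siPSF, siCTBP1-AS and siControl with 1 nM R1881 and vehicle. LNCaP set 1 held siCTBP1-AS and siControl with 10 nM R1881 and vehicle, and LNCaP set 2 held siCTBP1-AS and siControl with 1 nM R1881 and vehicle. Every siRNA and treatment had 1 array in a set, which gave 4 siPSF, 6 siCTBP1-AS and 8 siControl arrays. In the labels the siCTBP1-AS of set 2 and VCaP carries the mark #2, which the labels do not explain. A lower signal can come from fewer cells of a kind or from less RNA per cell, which a bulk array cannot tell apart.

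Values were log2 RMA signals, on a scale where 1 unit is a doubling. Set medians were 6.7, 5.74 and 6.8 in LNCaP sets 1, 2 and 3 and 6.25 in VCaP, so signals were compared within a set only. Arrays of a set correlated at 0.98 to 0.992 across clusters, and the number of arrays limited the precision. As a check of the labels, ERG, which VCaP expresses from a gene fusion, lay at 9.01 to 12.11 on the VCaP arrays and at 3.91 to 5.03 on the LNCaP arrays, across sets that were scaled separately. The lowest signal of KLK3, which encodes prostate-specific antigen, was 10.06 in VCaP and 10.39 in LNCaP. Other prostate markers had lower floors in LNCaP. The lowest signal was 11.34 in VCaP and 6.7 in LNCaP for KLK2, 8.74 and 8.54 for SLC45A3, and 10.87 and 9.81 for HOXB13. The leukocyte marker PTPRC reached at most 3.29 in VCaP and 3.8 in LNCaP, but not all markers of other cell types were that low. The leukocyte marker CD3E reached 3.94 in VCaP and 5.08 in LNCaP, and the basal marker KRT14 6.98 and 7.06. Of the fibroblast markers, COL1A1 reached 7.06 in VCaP and 8.1 in LNCaP, and LUM 10.1 and 4.63. The endothelial marker VWF reached 4.65 in VCaP and 6.62 in LNCaP.

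With siPSF, SFPQ fell and PSPC1 rose, while NONO did not pass the test. In the fit of all 18 arrays by limma, the SFPQ signal stood at 44% of its siControl level, a log2 change of -1.18 with an SE of 0.14 and an adjusted p of 0.000827. PSPC1 rose by 0.68 in log2 (SE 0.10, adjusted p = 0.00587), or 1.60-fold with a 95% interval of 1.37 to 1.86. NONO changed by 0.08 (SE 0.09, adjusted p = 0.76), with an interval of -0.10 to 0.27. In this comparison 1.33% of the 15910 clusters tested passed at an adjusted p under 0.05, 1.13% as lower and 0.201% as higher. PSPC1 ranked 4 by p-value among the 32 clusters called higher, and 1.5% of all clusters changed by at least as much in either direction. A fit on only the sets that hold siPSF had 2 residual degrees of freedom and called 0.39% of clusters. There SFPQ changed by -1.12 (adjusted p = 0.0752) and PSPC1 by 0.7 (adjusted p = 0.106), so neither passed. Without VCaP neither SFPQ (-0.79, adjusted p = 0.11) nor PSPC1 (0.9, adjusted p = 0.102) passed, and without LNCaP set 3 PSPC1 did not (0.49, adjusted p = 0.156).

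SFPQ, the target of the siRNA, had signals of 9.89 in R1881 and 10.47 in vehicle with siPSF in LNCaP set 3, against 10.79 and 11.15 with siControl. In VCaP its signals were 9.61 in R1881 and 9.7 in vehicle with siPSF, against 11.16 and 11.02 with siControl. Both siPSF arrays lay below every other array of their set, as they did for 18.7% of all clusters in LNCaP set 3, 8.94% in VCaP and 2.73% in both sets. Within a pair of the same treatment the SFPQ signal with siPSF was 53.7% and 62% of siControl in LNCaP and 34.2% and 39.9% in VCaP, R1881 first. Fitted within each set, the change was -0.79 in LNCaP (SE 0.10, adjusted p = 0.00458, 4.03% of clusters called) and -1.44 in VCaP (SE 0.10, adjusted p = 0.000149, 5.84% called). The spread behind these p-values is how far siRNA effects differed between vehicle and R1881 within a set, pooled over all sets and both siRNAs. It does not measure how an effect would differ between transfections. What remained was 57.7% of siControl in LNCaP (interval 49.2 to 67.8%) and 36.9% in VCaP (interval 31.4 to 43.3%). The fall was 0.64 log2 units deeper in VCaP (VCaP minus LNCaP -0.64, SE 0.15, adjusted p = 0.048, 2.98% of clusters called). That difference lost its call without the filter on dim clusters (adjusted p = 0.0685) and kept it in 4 of the 18 fits that each left out 1 array. Set, dose and serum differed along with the line. The LNCaP fall kept its sign but not its call without any one of the 4 set 3 arrays, with adjusted p up to 0.165.

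**Figure D1:**
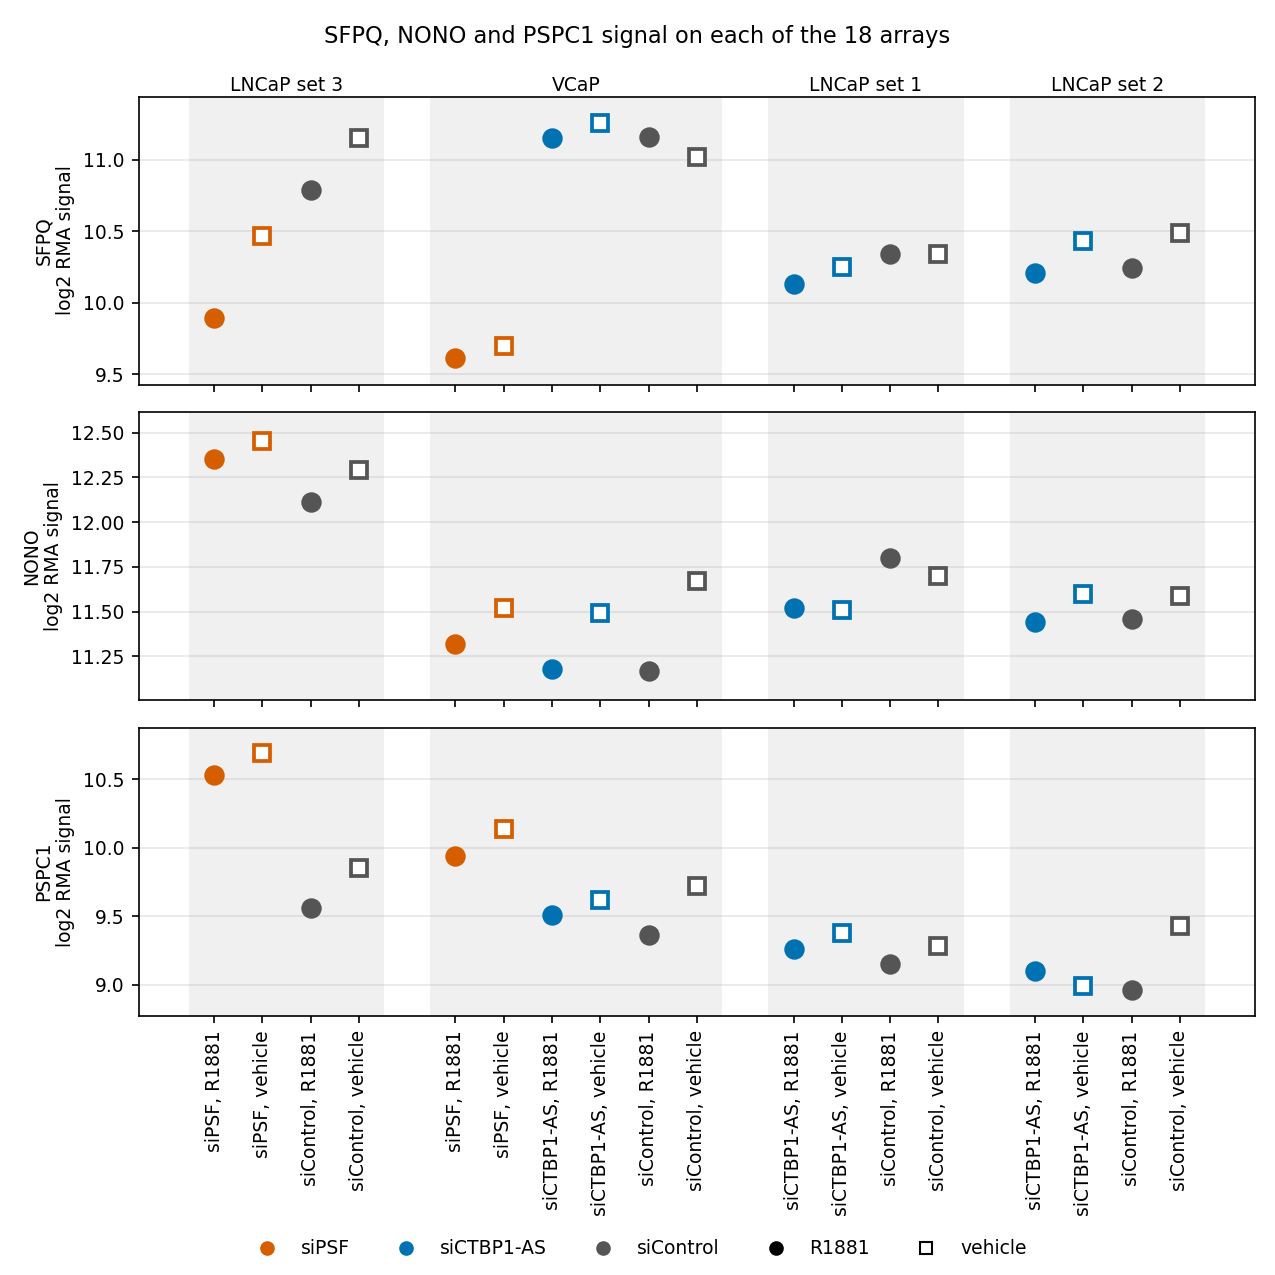
Log2 RMA signal of SFPQ, NONO and PSPC1 on each of the 18 arrays, 1 point per array, grouped by array set (shaded) with siRNA by colour and R1881 (filled circles) beside vehicle (open squares). The siPSF arrays are the lowest for SFPQ and the highest for PSPC1 in both sets that hold them, and levels are comparable within a shaded set only.

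PSPC1 had signals of 10.53 in R1881 and 10.69 in vehicle with siPSF in LNCaP set 3, against 9.56 and 9.85 with siControl. In VCaP it had 9.94 in R1881 and 10.14 in vehicle with siPSF, against 9.36 and 9.72 with siControl. In each set the lowest siPSF array stood above the highest array of the other siRNAs, as it did for 22.5% of all clusters in LNCaP set 3, 6.14% in VCaP and 1.68% in both sets. Within a pair the difference was 0.97 in R1881 and 0.84 in vehicle in LNCaP, and 0.59 in R1881 and 0.42 in vehicle in VCaP. Fitted within each set, PSPC1 rose by 0.90 in LNCaP (SE 0.13, adjusted p = 0.0076), a 1.87-fold level. That call, too, was lost without any one of the 4 set 3 arrays (adjusted p up to 0.184). In VCaP its change of 0.50 (SE 0.13, adjusted p = 0.0581), a 1.42-fold level with an interval of 1.15 to 1.74, did not pass. It passed there with an intensity trend in the spread (adjusted p = 0.034) and with quantile normalization within each set (adjusted p = 0.0399). The difference between lines, VCaP minus LNCaP, was -0.40 (SE 0.19, adjusted p = 0.308, interval -0.82 to 0.02) and did not pass. The larger PSPC1 change thus stood in LNCaP, where SFPQ had fallen less, though for PSPC1 the lines were not shown to differ.

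NONO had signals of 12.35 in R1881 and 12.45 in vehicle with siPSF in LNCaP set 3, against 12.11 and 12.29 with siControl. In VCaP it had 11.32 and 11.52 with siPSF, against 11.17 and 11.67 with siControl, again R1881 before vehicle. The siPSF arrays were the highest in LNCaP set 3, where 22.5% of all clusters had that order, and lay between the siControl arrays in VCaP. The change was 0.20 in LNCaP (SE 0.10, adjusted p = 0.317, interval -0.03 to 0.42) and 0.00 in VCaP (SE 0.10, adjusted p = 0.993, interval -0.22 to 0.23). A fall of NONO as deep as that of SFPQ lay outside both intervals.

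Interferon-stimulated genes, which small RNAs can induce, moved with siPSF in VCaP. All 7 genes of a list of them passed as higher in VCaP, with a median of 2.92, and 0 of the 7 passed in LNCaP, with a median of 0.02, beside 5.84% and 4.03% of all clusters called. Their summed log2 signal was 66.32 in R1881 and 60.35 in vehicle with siPSF in VCaP, against 42.28 and 40.87 with siControl. In LNCaP set 3 the sum was 38.82 and 38.81 with siPSF, against 37.58 and 40.28 with siControl. PSPC1 changed by 0.50 in VCaP and by 0.90 in LNCaP, and its call over both lines was lost without VCaP and also without LNCaP set 3. ERG fell by 1.64 (SE 0.14, adjusted p = 0.000285) and KLK3 by 0.55 (SE 0.13, adjusted p = 0.0391) with siPSF in VCaP, and the part of the interferon, ERG and KLK3 changes in the PSPC1 and SFPQ values was not tested.

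**Figure D2:**
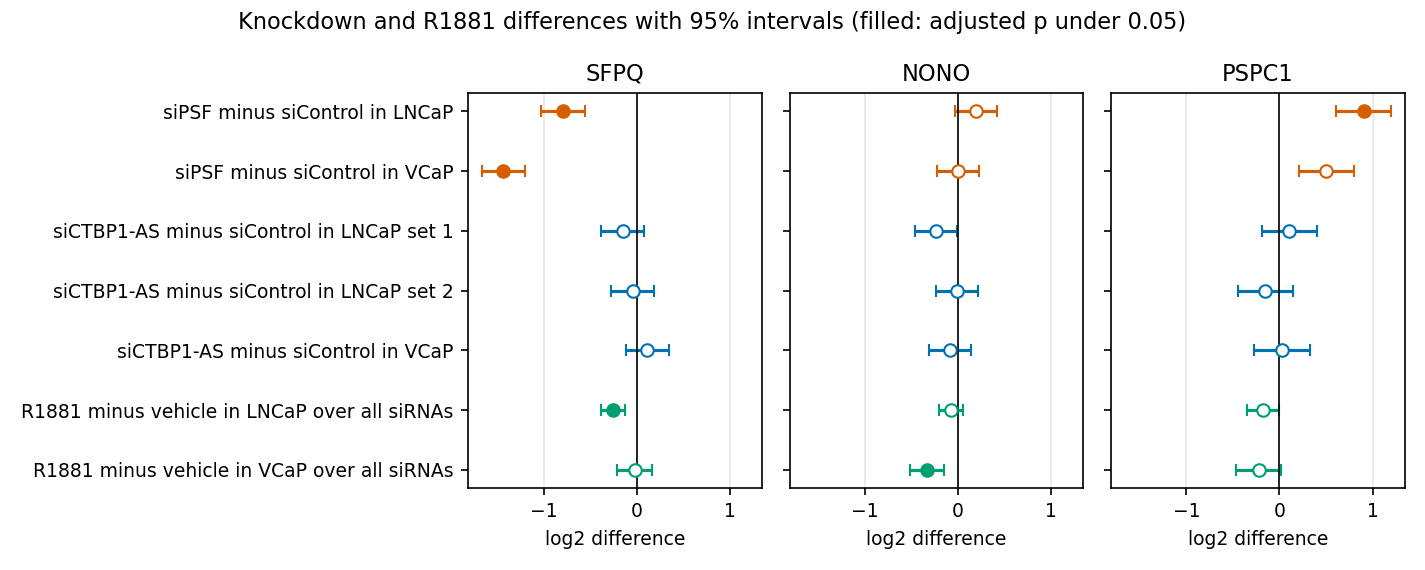
Differences of SFPQ, NONO and PSPC1 on the log2 scale with 95% intervals, fitted within array sets, for siPSF (orange) and siCTBP1-AS (blue) against siControl and for R1881 against vehicle (green). Filled points passed at an adjusted p under 0.05: SFPQ in both lines and PSPC1 in LNCaP with siPSF, SFPQ in LNCaP with R1881 and NONO in VCaP with R1881.

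The bases upstream of the transcription start are shown for PSPC1, the member that rose with siPSF, and for NONO, which did not pass. They are the 250 bases before the start in RefSeq on GRCh38.p14, 5′ to 3′ on the strand of the gene, at chr13:19782946-19783195 on the minus strand and chrX:71283385-71283634 on the plus strand. SFPQ was not matched in the promoter table. Capitals mark matches to any of the motifs searched.
PSPC1: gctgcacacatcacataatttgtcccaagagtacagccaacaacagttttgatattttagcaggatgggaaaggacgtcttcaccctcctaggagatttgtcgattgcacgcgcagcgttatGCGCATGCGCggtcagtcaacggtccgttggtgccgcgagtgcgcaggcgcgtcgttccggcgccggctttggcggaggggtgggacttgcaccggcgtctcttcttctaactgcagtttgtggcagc
NONO: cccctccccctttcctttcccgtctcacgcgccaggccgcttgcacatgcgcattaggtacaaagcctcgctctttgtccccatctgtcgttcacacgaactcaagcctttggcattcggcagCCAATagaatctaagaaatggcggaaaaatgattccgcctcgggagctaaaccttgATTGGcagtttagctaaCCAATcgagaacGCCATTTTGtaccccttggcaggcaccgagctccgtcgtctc
PSPC1 start site: ttgtggcagcGCCATTTTGaatgtgcagc
NONO site: aatcgagaacGCCATTTTGtaccccttgg
The motifs were searched on both strands over the 250 bases before and the 50 bases after the start, and they were chosen after both sequences had been seen. The core GCCATNTTG, known to be bound by YY1 and in capitals in the shorter lines, began at base 1 of the PSPC1 transcript and 42 bases before the NONO start (position -42), and 2.92% of 35116 promoters held it. PSPC1 had 1 match to the NRF1 element (GCGCA followed directly by TGCGC), which 1.24% of promoters held. NONO had 3 matches to CCAAT on either strand, against 0 in PSPC1 and at least 1 in 34.6% of promoters. The full androgen response element (AGAACA, any 3 bases, then TGTTCT), the GC box GGGCGG, the E-box CACGTG and TATAAA had 0 matches in both windows, and 0.00285%, 45%, 7.26% and 11.5% of promoters held them. No match overlapped another motif searched.

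With siCTBP1-AS none of the 3 genes passed the test. Over both lines the change was 0.04 for SFPQ (SE 0.11, interval -0.21 to 0.28), -0.09 for NONO (SE 0.07, interval -0.25 to 0.07) and 0.03 for PSPC1 (SE 0.09, interval -0.15 to 0.22), with adjusted p of 0.887, 0.544 and 0.872. In this comparison 0.49% of clusters were called. In set 1 PSPC1 had 9.26 in R1881 and 9.38 in vehicle with siCTBP1-AS, against 9.15 and 9.28 with siControl. In set 2 it had 9.1 and 8.99 with siCTBP1-AS, against 8.96 and 9.43 with siControl, so the signs opposed each other between treatments. In VCaP it had 9.51 and 9.62 with siCTBP1-AS, between the 9.36 and 9.72 with siControl, in a comparison that called 1.62% of clusters.

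NONO was lower with siCTBP1-AS in both pairs of set 1, at 11.52 in R1881 and 11.51 in vehicle against 11.8 and 11.7 with siControl. Its change there was -0.23 (SE 0.10, adjusted p = 0.262, 4.66% of clusters called) and did not pass. In set 2 it had 11.44 and 11.6 with siCTBP1-AS, against 11.46 and 11.59 with siControl, a change of -0.01. SFPQ changed by -0.15 in set 1, -0.04 in set 2 and 0.11 in VCaP, with adjusted p between 0.522 and 0.81. All 7 interferon genes rose with siCTBP1-AS as well, in set 1, set 2 and VCaP. Of the 7, 6, 6 and 4 passed as higher in that order, beside 4.66%, 21.7% and 1.62% of all clusters called. PSPC1 had changes of 0.11, -0.15 and 0.03 there, and a link with the interferon genes was not tested. In set 2, 21.7% of all clusters were called, and none of the 3 genes was among them (adjusted p 0.81 for SFPQ, 0.958 for NONO and 0.475 for PSPC1).

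VCaP held both knockdowns, which share their siControl arrays, so siPSF was also set directly against siCTBP1-AS. SFPQ had the smallest p-value of all clusters in this comparison, at -1.55 (SE 0.10, adjusted p = 0.000291, 3.83% called), and stood at 34.1% of its siCTBP1-AS level. PSPC1 was 0.47 higher (SE 0.13, adjusted p = 0.0863, interval 0.17 to 0.77) and did not pass. NONO differed by 0.09 (SE 0.10, adjusted p = 0.718).

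With R1881, SFPQ fell in LNCaP and NONO fell in VCaP, while PSPC1 passed in neither line. Over the 6 LNCaP pairs SFPQ fell by 0.25 (SE 0.06, adjusted p = 0.0138), to 83.8% of vehicle, in a comparison that called 21.2% of clusters. The call was lost without either set 1 siCTBP1-AS array or either siPSF array (adjusted p up to 0.0764). In LNCaP set 3 the R1881 minus vehicle difference of SFPQ was -0.57 with siPSF and -0.37 with siControl. In set 2 it was -0.21 with siCTBP1-AS and -0.25 with siControl, and in set 1 it was -0.12 and 0. In VCaP SFPQ differed by -0.02 (SE 0.08, adjusted p = 0.875). NONO was lower with R1881 in all 3 VCaP pairs, with differences of -0.2 with siPSF, -0.31 with siCTBP1-AS and -0.5 with siControl. It fell there by 0.33 (SE 0.08, adjusted p = 0.0124, 30.8% of clusters called), a call lost without either siControl array (adjusted p up to 0.0929). In LNCaP its change was -0.08 (SE 0.06, adjusted p = 0.382).

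PSPC1 was lower with R1881 in 8 of 9 pairs, with differences of -0.47 to 0.11. Its changes of -0.18 in LNCaP (SE 0.08, adjusted p = 0.143) and -0.22 in VCaP (SE 0.11, adjusted p = 0.154) did not pass. The response was not shown to differ between lines for any of the 3 genes. VCaP minus LNCaP was 0.23 for SFPQ, -0.25 for NONO and -0.05 for PSPC1 (adjusted p = 0.176, 0.132 and 0.855, with 13.1% of clusters called). With the 6 LNCaP siControl arrays alone the changes were -0.21 for SFPQ, -0.07 for NONO and -0.30 for PSPC1, and none passed among the 0.264% of clusters called. Pairing these arrays by set raised the call rate to 4.75%, and the adjusted p were 0.399, 0.777 and 0.22.

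Whether a knockdown changed the R1881 response was tested by the product term. For siPSF it was -0.28 for SFPQ (SE 0.25), 0.10 for NONO (SE 0.16) and 0.15 for PSPC1 (SE 0.19), each with an interval across 0. For siCTBP1-AS it was -0.05, 0.05 and 0.28 in the same order. Limma called 0 clusters in both comparisons. At an unadjusted p under 0.05 there were 312 clusters (1.96% of those tested) for siPSF and 558 (3.51%) for siCTBP1-AS.

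A list of 43 genes was compiled as further paraspeckle genes, though it holds MALAT1, an RNA of nuclear speckles. NEAT1, the RNA that builds paraspeckles, had no cluster under its symbol alone and was not tested. Of the 43 genes, 36 were tested. With siPSF over both lines limma called 0 of them, beside 1.33% of all clusters, and 3 had an unadjusted p under 0.05, beside 13.3% of all clusters. Their median change was 0.01, against 0.00 for all clusters, so the count of 0 is near that background. The largest changes were those of ZC3H6 at -0.45 (adjusted p = 0.22), RBM3, a cold-inducible RNA-binding protein gene, at -0.33 (adjusted p = 0.0908) and RBM4B at 0.27 (adjusted p = 0.171). MATR3, whose protein binds SFPQ, was at 0.14 (adjusted p = 0.522). ZC3H6 had 7.01 in R1881 and 7.67 in vehicle with siPSF in LNCaP set 3, against 7.09 and 7.88 with siControl. In VCaP it had 7.36 and 7.3 with siPSF, against 7.65 and 8.06 with siControl, a larger difference. In VCaP alone PCED1A fell by 0.38 (SE 0.09, adjusted p = 0.0398) as the 1 of 36 that passed, beside 5.84% of all clusters, and in LNCaP 0 passed, beside 4.03%. Of the genes left untested as dim, FIGN had 6.14 in R1881 and 6.51 in vehicle with siPSF in LNCaP set 3, against 6.91 and 7.11 with siControl. In VCaP FIGN had 3.83 and 3.76, against 3.77 and 3.6. BCL11A, also untested, had 4.93 and 6.07 with siPSF in VCaP, against 5.2 and 7.41 with siControl. In LNCaP set 3 BCL11A had 4.83 and 4.81, against 4.66 and 4.77.

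Of 20 genes of proteins that bind, modify or act with SFPQ or NONO, 18 were tested. With siPSF over both lines limma called 0 of them, beside 1.33% of all clusters, and 0 had an unadjusted p under 0.05, beside 13.3%. The largest changes were PER2, a clock gene, at 0.33 (adjusted p = 0.584), U2AF2, a splice site recognition factor gene, at -0.23 (adjusted p = 0.708) and PTBP1, encoding the partner for which PSF was named, at -0.17 (adjusted p = 0.434). The corepressor genes SIN3A, HDAC1 and HDAC2 stood at -0.00, -0.10 and 0.10. HDAC1 was higher with siPSF in both LNCaP pairs, at 11.96 in R1881 and 12.07 in vehicle against 11.78 and 11.87 with siControl. It was lower in both VCaP pairs, at 11.3 and 11.27 with siPSF against 11.59 and 11.55 with siControl, and the difference between lines of -0.48 did not pass (adjusted p = 0.0868). When siPSF was set against siCTBP1-AS in VCaP, HDAC1 was lower, with a difference of -0.49 (SE 0.09, adjusted p = 0.0202) as the 1 of 18 that passed, beside 3.83% of all clusters.

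**Figure D3:**
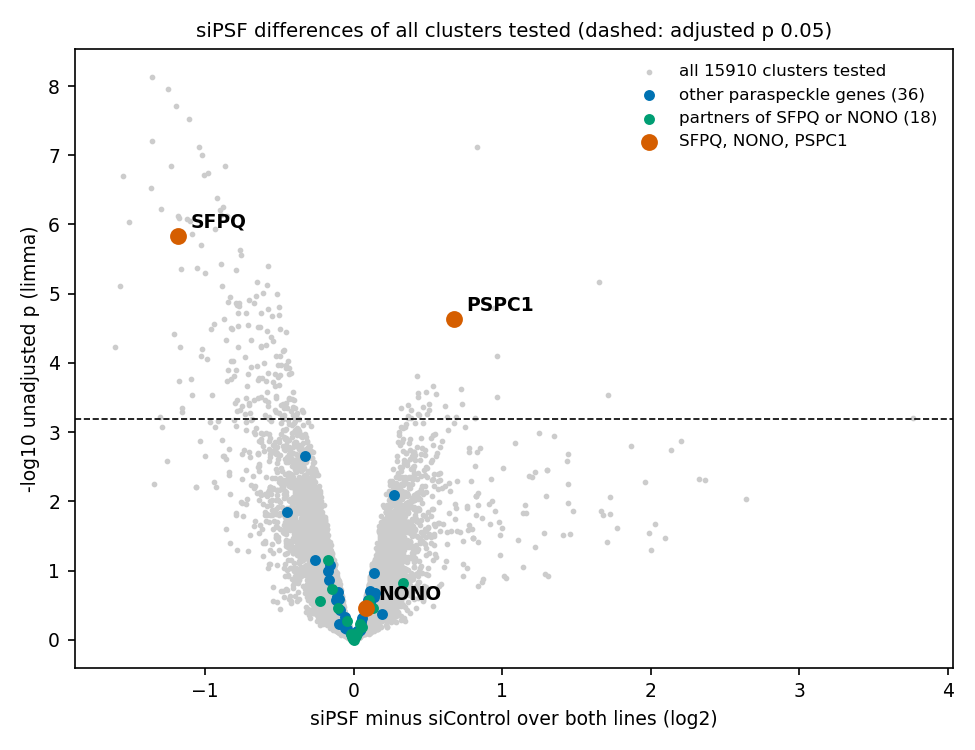
siPSF minus siControl over both lines on the log2 scale against −log10 of the unadjusted limma p for all 15910 clusters tested (grey), with the 36 further paraspeckle genes (blue), 18 partner genes (green) and SFPQ, NONO and PSPC1 (orange). SFPQ at -1.18 and PSPC1 at 0.68 lie above the dashed line of the adjusted threshold, and NONO and every tested gene of both lists lie below it.

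With siCTBP1-AS over both lines limma called 0 of the 36 paraspeckle and 0 of the 18 partner genes, beside 0.49% of all clusters. At an unadjusted p under 0.05 there were 9 and 1, beside 18.2% of all clusters. HNRNPUL1 had -0.52 (adjusted p = 0.11), ZC3H6 -0.51 (adjusted p = 0.081) and SMARCC1, a chromatin remodelling gene, -0.30 (adjusted p = 0.0888), while U2AF2 had -0.46 (adjusted p = 0.179), PTK6 -0.16 (adjusted p = 0.354) and PTBP1 -0.15 (adjusted p = 0.31). In set 2 alone 1 of 36 paraspeckle genes rose and 9 fell, or 27.8%, beside the 21.7% of all clusters called there. HNRNPUL1 fell by 1.25 (SE 0.09, adjusted p = 4.9e-05) and UBAP2L by 0.65 (SE 0.09, adjusted p = 0.00116), and ZNF24 was the 1 that rose, by 0.39 (SE 0.10, adjusted p = 0.0196). Of the partner genes 1 rose and 3 fell in set 2, or 22.2%. U2AF2 fell by 1.22 (SE 0.13, adjusted p = 0.000252), GSK3B by 0.39 (adjusted p = 0.034) and PTBP1 by 0.37 (adjusted p = 0.0202). PER2 rose there by 0.57 (adjusted p = 0.0388) and fell in set 1 by 0.85 (adjusted p = 0.0225). In set 1 0 of 36 paraspeckle genes passed, beside 4.66% of all clusters, and in VCaP 1, PCED1A at -0.51 (adjusted p = 0.0289), beside 1.62%.

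**Figure D4:**
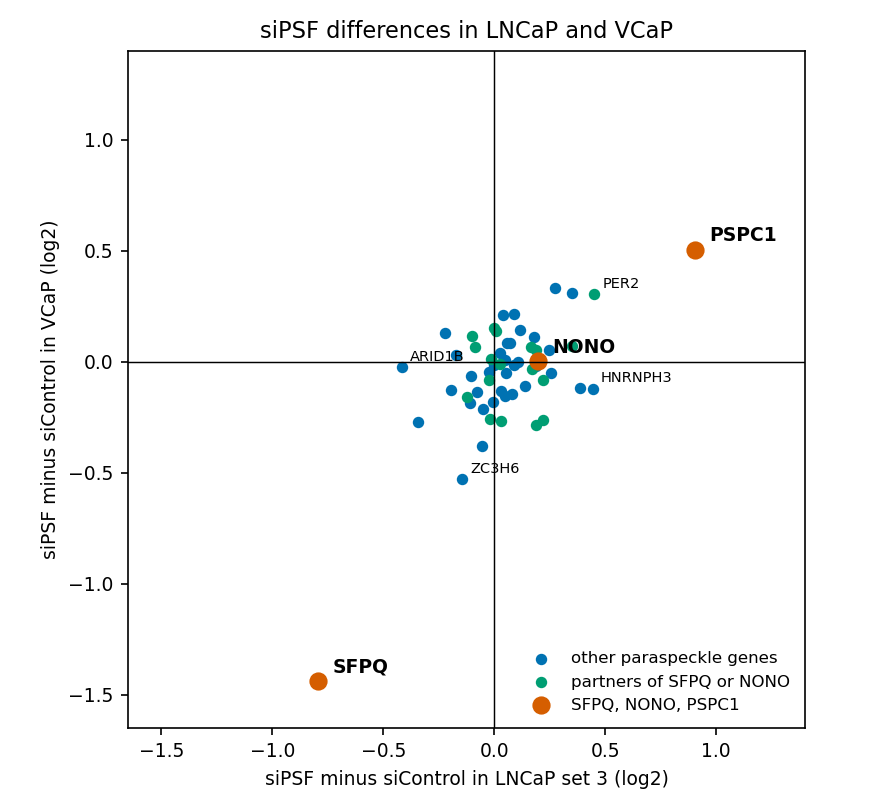
siPSF minus siControl on the log2 scale in LNCaP set 3 (horizontal) and VCaP (vertical), which share no array, for SFPQ, NONO and PSPC1 (orange), the further paraspeckle genes (blue) and the partner genes (green). SFPQ lies at -0.79 and -1.44 and PSPC1 at 0.90 and 0.50. The paraspeckle genes that were tested span -0.42 to 0.44 in LNCaP and -0.53 to 0.33 in VCaP, and genes left out by the filter on dim clusters are not shown.

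With R1881, the calls in both lists were near or under the share of all clusters. Of partner genes 22.2% were called in LNCaP and 11.1% in VCaP, and of paraspeckle genes 11.1% in each line, beside 21.2% of all clusters in LNCaP and 30.8% in VCaP. Among partner genes in LNCaP, PER1, a clock gene, rose by 0.86 (SE 0.08, adjusted p = 8.62e-05) and THRAP3 by 0.45, while CTBP1 fell by 0.61 (SE 0.11, adjusted p = 0.00372) and PER2 by 0.49. In VCaP PER1 rose by 1.07 (SE 0.11, adjusted p = 0.00013) and HDAC2, a histone deacetylase gene, fell by 0.47 (SE 0.08, adjusted p = 0.002). Among paraspeckle genes in LNCaP, CPSF7 rose by 0.36 and SMARCC1 by 0.18, while ZC3H6 fell by 0.72 and CIRBP by 0.29. In VCaP HNRNPA1 fell by 0.55 (SE 0.11, adjusted p = 0.00535), NUDT21 by 0.33, HNRNPH3 by 0.32 and HNRNPUL1 by 0.23. The HNRNPA1 cluster had 5.71 in R1881 and 6.39 in vehicle with siControl in VCaP, near the set median of 6.25. A cluster that carries HNRNPA1 among several symbols was not used.

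Likeness of pattern was measured as the Pearson correlation of signals centred on the set mean over the 18 arrays, as a description, since arrays of a set share their normalization. The members themselves correlated at -0.65 for SFPQ and PSPC1, -0.11 for SFPQ and NONO and 0.51 for NONO and PSPC1. Without the 4 siPSF arrays the value for SFPQ and PSPC1 was 0.38 over 14 arrays, and the others were 0.34 and 0.44. Nearest to SFPQ were TAS2R14 at 0.962, MBD5 at 0.953, NAALADL2 at 0.939, TAS2R20 at 0.937 and RSU1 at 0.934. Their siPSF changes of -0.90 to -1.55 are given without a test, since the correlation that chose them used the siPSF arrays. The probes of the taste receptor genes may also read other transcripts, which was not tested.

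Nearest to NONO was HDAC2 at 0.948, followed by ZNF280C at 0.916, ZSCAN23 at 0.912, DEK at 0.895 and ZNF326 at 0.891. Nearest to PSPC1 were DPF2 at 0.934 and SMARCD1 at 0.862, which encode subunits of BAF chromatin remodelling complexes, PXK at 0.862 and RYK, a Wnt receptor gene, at 0.846. The remaining cluster of the 5 carried several gene symbols and is not named. These genes were chosen in the same way, and their siPSF changes, given without a test, were 0.31 for DPF2, 0.31 for SMARCD1, 0.40 for PXK and 0.43 for RYK.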

How the data were processed

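Total RNA was hybridised to 18 gene-level arrays. Each deposited column holds RMA signals on the log2 scale, 1 per transcript cluster. The submitters' processing notes name Affymetrix Expression Console, version 1.1.1, and the sources used here do not say how arrays were grouped for RMA. Array sets were read from the array names in the labels. Of 33297 clusters, the annotation table of the platform gave a single symbol for 19460 and several for 1754, and it left 12083 unlisted. Named clusters were tested after the 25% with the lowest mean were left out, which left 15910, and all 3 members were kept.

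Tests used limma 3.58.1 in R 4.3.3 (lmFit, eBayes, Benjamini-Hochberg over all clusters tested, threshold 0.05). Effects over both lines had set as a block, R1881 per line, both siRNAs and their products with R1881, with effects averaged over treatments. Effects within a set had R1881 and each siRNA per set. Since no label says that the arrays stand for separate cultures, the spread behind each p-value is that between these arrays and may be technical. Arrays of LNCaP siControl with the same number share a set, and their deviations from group means correlated at 0.79, 0.85 and 0.71, against -0.63 to -0.08 otherwise. The members and lists were chosen with earlier results of these data known. All clusters of the members are named. In each siRNA comparison over both lines, each list names the members that passed or, where fewer than 3 did, the 3 with the largest change. List genes named elsewhere, with MATR3, SIN3A, HDAC1 and HDAC2, were chosen after their values were seen. Nearest genes are the 5 with the highest correlation. Scripts were tested on simulated data. NONO, PSPC1 and SFPQ have pseudogenes whose transcripts the probes may read in part. Alternatives were the filter, 1 cluster per gene, all clusters, an intensity trend, quantile normalization, fewer sets, each array left out and, for R1881, pairing.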

Additional observations from a re-analysis of the deposited data

Results flagged for a closer look

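The fall of SFPQ with siPSF differed between the lines by a test of the difference itself, though each line held siPSF in 1 set only. The p-value thus does not measure how the fall would differ between transfections. The call was lost without the filter on dim clusters (limma adjusted p = 0.0685). It was kept in 4 of the 18 fits that each left out 1 array. VCaP minus LNCaP was -0.64 on the log2 scale (SE 0.15, limma adjusted p = 0.048, 2.98% of clusters called), with a change of -1.44 in VCaP and -0.79 in LNCaP. Within a pair the difference was -1.55 in R1881 and -1.33 in vehicle in VCaP, and -0.9 in R1881 and -0.69 in vehicle in LNCaP. The set, the R1881 dose, the serum and the line changed together, so they cannot be told apart.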

How the results depend on the processing

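Under the alternatives other than leaving out 1 array or set, 232 values of the 3 genes kept their direction and side of the threshold, 4 lost their call, 2 gained one and 2 changed sign. On only the sets that hold the knockdown, siPSF over both lines gave 62 called clusters against 212, SFPQ -1.12 and PSPC1 0.7, neither passing. For siCTBP1-AS that setting gave 16 clusters against 78, SFPQ -0.03 and PSPC1 -0.01, signs opposite to the main values, and 43 were called without the filter on dim clusters and 23 over all clusters. PSPC1 with siPSF in VCaP passed at 0.5 with an intensity trend and at 0.51 with quantile normalization. The SFPQ difference between lines stayed at -0.64 but did not pass without the filter or over all clusters (adjusted p = 0.0685 and 0.106). Testing all clusters called 271 against 641 for siPSF in LNCaP, 127 against 474 for VCaP minus LNCaP, 104 against 257 for siCTBP1-AS in VCaP (400 with a trend) and 290 against 609 for siPSF minus siCTBP1-AS. For R1881 in LNCaP siControl arrays, 42 clusters became 12 over all clusters, 101 with a trend and 755 with the replicate block, and the block changed no call of the 3 genes. Beyond fewer samples or more clusters tested, the cause of these shifts was not tested.

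With 1 array or set left out, clusters called ranged from 1 (without VCaP) to 213 for siPSF over both lines, 2 to 128 for siCTBP1-AS over both lines and 0 to 102 for R1881 in siControl. For siPSF over both lines SFPQ ranged from -1.51 to -0.79, NONO from -0.01 to 0.2 and PSPC1 from 0.49 to 0.9. SFPQ lost its call without VCaP (adjusted p = 0.11), and PSPC1 without VCaP (adjusted p = 0.102) and without LNCaP set 3 (adjusted p = 0.156). For siCTBP1-AS over both lines SFPQ ranged from -0.1 to 0.13 and PSPC1 from -0.02 to 0.12. The change of the R1881 response with siPSF ranged from -0.61 to 0.16 for SFPQ, -0.04 to 0.27 for NONO and -0.03 to 0.37 for PSPC1, and with siCTBP1-AS from -0.19 to 0.11 for SFPQ and -0.03 to 0.13 for NONO. For siPSF in LNCaP the ranges were -0.9 to -0.69 for SFPQ and 0.84 to 0.97 for PSPC1, in VCaP -0.12 to 0.13 for NONO and 0.4 to 0.61 for PSPC1, and between lines -0.76 to -0.53 for SFPQ. PSPC1 with siPSF in VCaP passed at 0.5 without any one set 2 array, as did its difference from siCTBP1-AS, at 0.47. For siCTBP1-AS, set 2 gave -0.03 to 0.01 for NONO and -0.44 to 0.14 for PSPC1, and VCaP 0 to 0.23 for SFPQ, -0.21 to 0.04 for NONO and -0.07 to 0.13 for PSPC1. For siPSF minus siCTBP1-AS NONO ranged from -0.02 to 0.19 and PSPC1 from 0.39 to 0.55. For R1881, LNCaP gave -0.29 to -0.22 for SFPQ and -0.27 to -0.08 for PSPC1 (passing at -0.27 without either set 2 siCTBP1-AS array), VCaP -0.1 to 0.02 for SFPQ and -0.4 to -0.25 for NONO, and VCaP minus LNCaP -0.14 to 0.05 for PSPC1. In LNCaP siControl arrays SFPQ ranged from -0.37 to 0.04 and NONO from -0.23 to 0.14.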

Other observations

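Without the 4 siPSF arrays, other genes stood nearest to each family member by the set-centred Pearson correlation over 14 arrays. For PSPC1 they were KLHL12 at 0.967, CACNA2D2 at 0.931, ATXN7L1 at 0.929, WEE1 at 0.928 and PXK at 0.918, of which PXK was also among the nearest over all 18 arrays. With siPSF over both lines, a comparison whose siControl arrays this choice did use, CACNA2D2 changed by -0.60 (limma adjusted p = 0.016) and ATXN7L1 by -0.73 (adjusted p = 0.0462), the direction opposite to PSPC1. Of all clusters tested there, 1.13% were called lower. KLHL12, WEE1 and PXK had changes of 0.00, 0.34 and 0.40 that did not pass (adjusted p = 0.993, 0.495 and 0.109). For NONO they were OXCT1 at 0.957, ZNF37BP at 0.956, HDAC2 at 0.955, RPL14 at 0.949 and HNRNPA1L2 at 0.948, so HDAC2 stood near NONO with and without siPSF. For SFPQ RIBC1 at 0.938 and GPC4 at 0.906 were nearest, and neither passed with siPSF over both lines (changes of 0.25 and -0.02, limma adjusted p = 0.53 and 0.959).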
